A study of Arabidopsis thaliana with 12 samples.

Results

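The genes RCD1 (AT1G32230), SRO1 (AT2G35510), SRO2 (AT1G23550), SRO3 (AT1G70440), SRO4 (AT3G47720) and SRO5 (AT5G62520) form a small protein family of Arabidopsis thaliana and were taken by their gene identifiers, 6 of the 33559 genes in the expression table. RCD1 and SRO1 also each have 1 event in the deposited tables of alternative splicing, which name 330 genes between them. All libraries came from whole seedlings, 12 days old, in the Col-0 background. The wild type was set beside smeb-1 and smeb-2, which carry mutant alleles of SmEb, a protein of the Sm ring that spliceosomal small nuclear ribonucleoproteins are built on. Each line was either untreated or given 200 mM NaCl for 6 h, which makes 6 groups of 2 libraries. The labels do not say what kind of mutation either allele carries. They give the control as untreated for 6 h in 1 field and the salt exposure as 0 or 6 h in another, so it is uncertain when controls were harvested. A further field writes Cd where titles and treatment write salt, and the salt reading was used. Nothing says that libraries of a group came from separate cultures, so p-values measure the spread between these samples, which may be technical. The series' title puts the question of whether SmEb keeps the splicing of RCD1 pre-mRNA correct under salt.

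RCD1 (RADICAL-INDUCED CELL DEATH1) is a nuclear hub protein that was found through the sensitivity of its mutant to ozone and to superoxide. It joins a WWE domain, a domain like the catalytic part of poly(ADP-ribose) polymerases and a carboxy-terminal RST domain, through which it binds many transcription factors, among them DREB2A, ANAC013 and ANAC017. SRO1 is its nearest relative and has the same domains, whereas the shorter SRO2 to SRO5 lack the WWE domain. SRO5 overlaps the proline breakdown gene P5CDH on the opposite strand, and small RNAs made from that pair under salt have been described in Arabidopsis.

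The annotation of build TAIR10.1 separates the 2 long genes from the 4 short ones. RCD1 lies on chromosome 1 from 11611891 to 11617419, plus strand, with 6 coding exons and 1770 coding bases. SRO1 lies on chromosome 2 from 14916690 to 14920482, minus strand, with 5 coding exons and 1707 coding bases. The other four have 4 coding exons each and between 918 and 972 coding bases. SRO2 is at chromosome 1 from 8350728 to 8352791 (plus), SRO3 at chromosome 1 from 26548952 to 26550636 (minus), SRO4 at chromosome 3 from 17592558 to 17594132 (plus) and SRO5 at chromosome 5 from 25097944 to 25099907 (plus). Each of these short genes overlaps the end of a protein-coding gene on the other strand, SRO2 by 177 bases with AT1G23560, SRO3 by 265 with AT1G70430, SRO4 by 73 with ABCA2 and SRO5 by 905 with P5CDH (ALDH12A1, AT5G62530). For SRO5 that is 46.1% of its span. RCD1 and SRO1 overlap no other protein-coding gene, and 24.9% of the 27444 protein-coding genes overlap another. Whether the authors counted by strand is not given in the sources used here, so reads in these overlaps cannot be assigned to a strand, and each neighbour is reported beside its member.

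**Figure D1:**
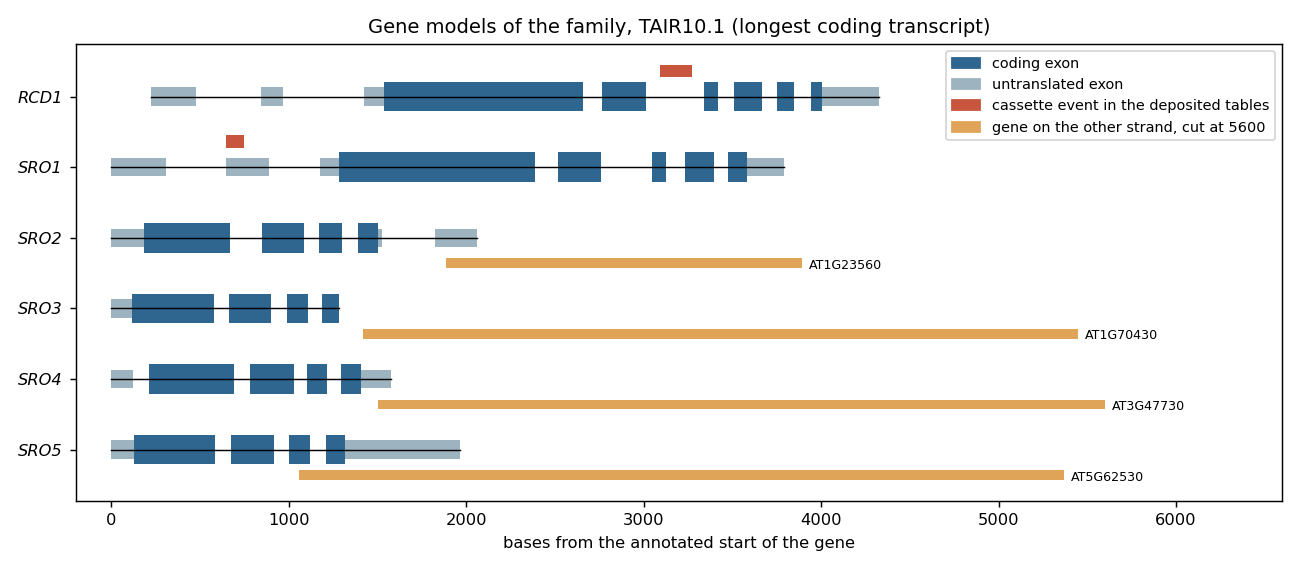
Gene models of the 6 family members on a common scale, with bases from the annotated start of each gene on the horizontal axis and 1 gene per row. Coding and untranslated exons belong to the longest coding transcript, and bars below a model are genes on the other strand. RCD1 and SRO1 carry the longest coding exons and a cassette event above the model. The annotated spans of SRO2 to SRO5 each overlap a neighbour, which for SRO3 starts beyond the end of the transcript drawn.

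The stretch of RCD1 that the splicing table lists is printed because the RCD1 event below turns on it. Capitals mark the 179-base event, lower case the 20 bases on each side, all of it inside an annotated intron of build TAIR10.1.
RCD1 event, chr1:11614963-11615181, plus strand: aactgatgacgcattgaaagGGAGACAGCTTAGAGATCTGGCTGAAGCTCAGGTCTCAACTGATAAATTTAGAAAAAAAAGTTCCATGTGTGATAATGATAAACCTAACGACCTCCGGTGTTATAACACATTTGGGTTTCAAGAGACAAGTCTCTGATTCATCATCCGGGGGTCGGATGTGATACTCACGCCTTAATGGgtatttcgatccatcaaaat
The stretch starts after ag and is followed by gt, the usual bases at the edges of an intron. For SRO1 the junctions of exon 2 are shown, with the intron bases that touch the exon in capitals.
SRO1 exon 2 acceptor, chr2:14919824-14919847, minus strand: cttgtcttacAGagttgacatttg
SRO1 exon 2 donor, chr2:14919721-14919744, minus strand: tgctacagcctgGTaagtctcaag

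Promoters of SRO2, SRO3 and SRO5, the members that rose with salt in Col-0, are given as the 250 bases before each annotated start in TAIR10.1, with motif matches in capitals. The motifs searched on both strands were CTTG and CAAG with any 5 bases between them, a core form of the mitochondrial dysfunction motif bound by ANAC013 and ANAC017, ACGTG of abscisic acid response elements, CCGAC of dehydration response elements and TTGAC of W boxes.
SRO2 promoter, chr1:8350478-8350727, plus strand: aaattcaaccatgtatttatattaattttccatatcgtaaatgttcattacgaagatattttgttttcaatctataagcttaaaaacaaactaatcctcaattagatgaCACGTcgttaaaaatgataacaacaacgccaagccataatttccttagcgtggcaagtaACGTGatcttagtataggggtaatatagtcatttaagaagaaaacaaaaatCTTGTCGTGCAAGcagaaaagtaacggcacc
SRO3 promoter, chr1:26550637-26550886, minus strand: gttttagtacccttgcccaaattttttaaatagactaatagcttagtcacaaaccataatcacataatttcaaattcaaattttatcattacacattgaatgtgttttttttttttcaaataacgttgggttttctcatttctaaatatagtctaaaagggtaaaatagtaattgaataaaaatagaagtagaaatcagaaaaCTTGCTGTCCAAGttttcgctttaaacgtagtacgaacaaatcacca
SRO5 promoter, chr5:25097694-25097943, plus strand: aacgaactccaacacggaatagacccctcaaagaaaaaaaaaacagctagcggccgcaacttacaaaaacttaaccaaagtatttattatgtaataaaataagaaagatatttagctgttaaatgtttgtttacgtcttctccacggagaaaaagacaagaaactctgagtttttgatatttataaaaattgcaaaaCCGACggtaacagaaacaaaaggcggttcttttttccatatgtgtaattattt
The spaced motif was found in SRO2, with its first base at -31 from the start, and in SRO3, at -47, and in 0.740% of all 27443 promoters of this length. SRO2 also has ACGTG at 2 places, once on each strand, and SRO4 has it once, against 22.9% of all promoters with a match. CCGAC occurs in SRO5 alone of the 6, against 12.0% of all promoters, and TTGAC in SRO1 alone, against 44.9%. The RCD1 window holds none of these 4 strings. These matches describe letters in the windows and say nothing of whether a factor binds there.

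Across the libraries the genotype labels were matched by SmEb itself. Untreated Col-0 libraries had 58.9 and 55.1 FPKM of SmEb (fragments scaled by transcript length and library total), and salt-treated ones 73.3 and 76.1. In smeb-1 it lay between 22.9 and 27.6 FPKM, and in smeb-2 between 1.92 and 6.24. All mutant libraries were thus below all Col-0 libraries, and the smeb-2 libraries were below those of smeb-1. Library sums of FPKM ran from 738721 to 776714 in salt and from 827553 to 848257 in control, and estimated relative depth from 0.819 to 1.73, the highest being a smeb-2 control library. The paired libraries differed most in Col-0 salt, with a median absolute log2 difference over genes of 0.167 against 0.0847 to 0.0998 in the other groups. Libraries of a group are called suffix 0 and suffix 1 after the column names.

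RCD1 was the most abundant member in every library. It held 76.4% to 79.5% of the summed FPKM of the family in control and 67.2% to 70.3% in salt. SRO1 came next at 14.4% to 20.4% in control and 15.5% to 18.1% in salt. The share of SRO5 was 1.54% to 5.65% in control and 8.15% to 9.65% in salt, while SRO2 went from at most 1.24% in control to at least 3.14% in salt. These are FPKM levels, which are scaled by transcript length and so can be set beside each other between genes.

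**Figure D2:**
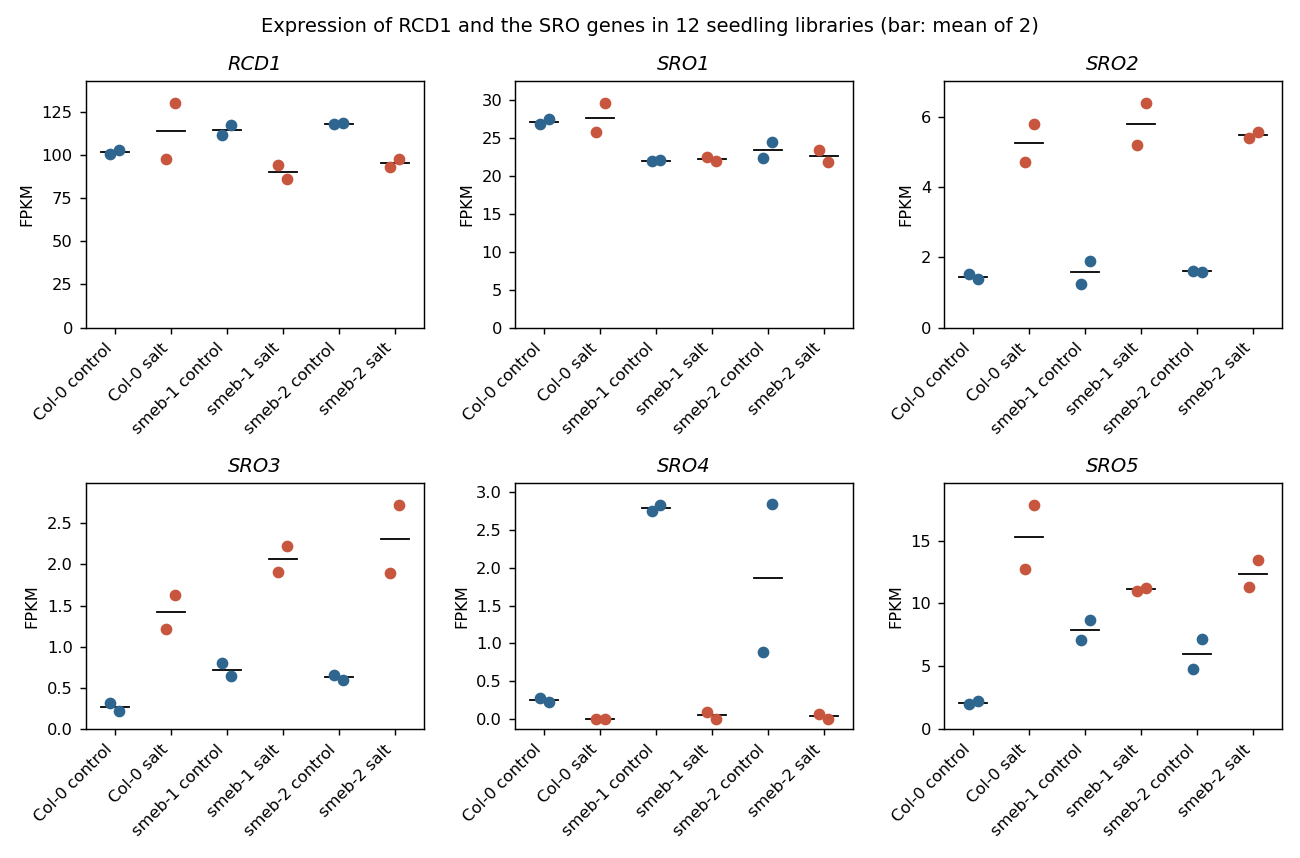
FPKM of each family member (vertical axes, linear, 1 panel per gene) in the 6 groups, with 1 point per library, blue for control and red for salt, and a bar at the mean of 2. SRO2, SRO3 and SRO5 sit higher in salt than in control in every line, SRO4 is high in the smeb controls, and RCD1 and SRO1 move little.

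RCD1 fell with salt in both mutant lines and did not pass the test in Col-0. In Col-0 its FPKM was 100 and 103 in control and 97.8 and 130 in salt. In smeb-1 it was 112 and 117 in control against 94.3 and 85.9 in salt. In smeb-2 both control libraries were at 118, against 92.7 and 97.5 in salt. Control and salt libraries did not overlap in either mutant line, but overlapped in Col-0, where a single salt library stood above all others. On the log2(FPKM + 1) scale salt changed RCD1 by -0.34 ± 0.11 (SE, adjusted p = 0.0224, limma) in smeb-1 and by -0.31 ± 0.11 (adjusted p = 0.0332) in smeb-2. The difference in Col-0 was 0.15 ± 0.11 (adjusted p = 0.272). The difference in salt response between smeb and Col-0, tested as such, was -0.47 ± 0.13 (adjusted p = 0.0554). Untreated smeb against Col-0 gave 0.19 ± 0.10 (adjusted p = 0.182), and salt-treated smeb against Col-0 gave -0.28 ± 0.10 (adjusted p = 0.0520). From the highest group mean to the lowest, RCD1 ran through smeb-2 control, smeb-1 control, Col-0 salt, Col-0 control, smeb-2 salt and smeb-1 salt, and Col-0 salt overlapped both its neighbours.

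These RCD1 calls turned on single libraries. Without Col-0 salt suffix 0, the salt difference in Col-0 was 0.35 (adjusted p = 0.00165), salt-treated smeb against Col-0 was -0.48 (adjusted p = 4.08e-04) and the difference in response was -0.67 (adjusted p = 4.78e-04). Without Col-0 salt suffix 1, the salt difference in Col-0 was -0.06 (adjusted p = 0.506). The falls in smeb-1 were not called without smeb-1 salt suffix 1 (-0.28, adjusted p = 0.129), without smeb-1 control suffix 0 (-0.38, adjusted p = 0.0554) or without smeb-1 control suffix 1 (-0.31, adjusted p = 0.108). In smeb-2 the call was lost without any 1 of its 4 libraries (-0.35 to -0.27, adjusted p from 0.0719 to 0.138). With no filter on low values, which brings 33559 genes into the adjustment, the adjusted p was 0.0732 in smeb-1 and 0.0967 in smeb-2.

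Some tissue markers also differed with salt, in both directions, which may bear on the salt differences given here. The summed FPKM of 8 root marker genes was 1204 to 1347 in control and 632 to 816 in salt, a sum carried by PYK10, a beta-glucosidase of roots, which had a mean of 1190 in untreated Col-0 and of 741 after salt. Without PYK10 the other 7 summed to 49.3 to 63.6 in control and 51.8 to 60.0 in salt, ranges that overlap. Of the 8 root markers 6 passed the filter. In Col-0 with salt SCR (0.53) and MYB36 (0.61) were higher, PYK10 (-0.68) and EXPA7 (-0.64) were lower and 2 were not called. Of 7 shoot markers 2 were higher, 2 lower and 3 not called in that comparison. There 61.8% of all genes were called, so both lists were called about as often as genes in general. Of the shoot markers RBCS1A, with a lowest FPKM of 7649, was left out of the sum. The other 6 summed to 89.5 to 100.3 in control and 80.5 to 96.9 in salt, ranges that overlap. None of these markers was listed at 0 in a library. Fewer cells of a type and less RNA per cell cannot be told apart in whole seedlings, and the part of these marker levels in the results was not tested.

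SRO1 was lower in the mutant lines and did not respond to salt beyond the spread of libraries. Col-0 had 26.8 and 27.4 FPKM in control and 25.8 and 29.5 in salt. The smeb-1 libraries had 22.0 and 22.0 in control and 22.5 and 22.0 in salt, and those of smeb-2 had 22.4 and 24.4, then 23.4 and 21.8. Every Col-0 library was above every smeb library. Without salt, smeb against Col-0 was -0.25 ± 0.07 (SE, adjusted p = 0.0237), with salt it was -0.29 ± 0.07 (adjusted p = 0.0127), and the difference in salt response was -0.04 ± 0.09 (adjusted p = 0.825). Salt differences within lines lay between -0.05 and 0.02, with adjusted p from 0.631 to 0.893. In the order of group means both Col-0 groups came first and overlapped each other, and the 4 smeb groups followed, each overlapping the next. The fall in control was not called without 1 of 5 libraries, namely Col-0 control suffix 0 or 1, smeb-1 control suffix 0 or 1, or smeb-2 control suffix 0 (-0.26 to -0.22, adjusted p from 0.0538 to 0.151), and the fall in salt not without Col-0 salt suffix 1 (-0.19, adjusted p = 0.0934).

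SRO2 rose with salt in all 3 lines by a like amount. The Col-0 libraries were at 1.53 and 1.38 FPKM in control and 4.71 and 5.80 in salt. Those of smeb-1 were at 1.26 and 1.91, then 5.22 and 6.39, and those of smeb-2 at 1.62 and 1.58, then 5.41 and 5.58. All salt libraries were above all control libraries. Within a treatment the lines overlapped, except that both smeb-2 controls lay just above both Col-0 controls. The salt difference was 1.35 ± 0.14 (SE, adjusted p = 2.57e-05) in Col-0, 1.40 ± 0.14 (adjusted p = 2.40e-05) in smeb-1 and 1.32 ± 0.14 (adjusted p = 3.22e-05) in smeb-2. The difference in response was 0.02, with a 95% interval of the fit from -0.38 to 0.41. The salt rise held in each of the 18 alternative settings in every line. Its neighbour AT1G23560 had a different pattern, with Col-0 means of 1.74 FPKM untreated and 2.54 with salt, and 3.50 and 4.39 over the mutant lines. AT1G23560 was higher in untreated smeb than in Col-0 by 0.71 ± 0.11 (adjusted p = 0.00167), where SRO2 differed by 0.07 ± 0.12 (adjusted p = 0.719).

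SRO3 also rose with salt in every line and lay higher in both mutants without passing that test. Col-0 had 0.32 and 0.220 FPKM in control and 1.22 and 1.63 in salt. Smeb-1 had 0.802 and 0.647, then 1.91 and 2.23, and smeb-2 had 0.659 and 0.600, then 1.90 and 2.72. All smeb libraries were above the Col-0 libraries of the same treatment, and salt libraries were above all control libraries. The salt difference was 0.93 ± 0.15 (SE, adjusted p = 4.69e-04) in Col-0, 0.83 ± 0.15 (adjusted p = 0.00111) in smeb-1 and 1.01 ± 0.15 (adjusted p = 2.86e-04) in smeb-2, and it held in each of 18 settings in every line. The difference in response was -0.01 ± 0.19 (adjusted p = 0.986), and over the 18 settings it ran from -0.49 to 0.11. Smeb against Col-0 gave 0.40 ± 0.13 without salt (adjusted p = 0.0523) and 0.39 ± 0.13 with it (adjusted p = 0.0512), a size that understates the ratio of such low values. With a pseudocount of 0.1 in place of 1 the difference in control was 1.08 (adjusted p = 0.00941). The control difference was called without Col-0 salt suffix 0 or suffix 1 or either smeb-2 salt library (adjusted p from 0.0405 to 0.0414), and the salt difference without smeb-2 salt suffix 0 (0.48, adjusted p = 0.0325). SRO3 reached 1 FPKM only in the 6 salt libraries, so it entered the test through the groups where it is high. Its neighbour AT1G70430 was higher in smeb too, at 0.890 and 0.980 FPKM in Col-0 control against 1.72 to 2.11 in the smeb controls, by 0.57 ± 0.12 (adjusted p = 0.00638). In Col-0 with salt AT1G70430 was at 0.840 and 0.619, a difference of -0.16 ± 0.13 (adjusted p = 0.309), where SRO3 rose.

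SRO4 was high in untreated smeb and close to 0 in all salt libraries. Col-0 control stood at 0.270 and 0.214 FPKM, smeb-1 control at 2.75 and 2.83 and smeb-2 control at 0.890 and 2.84. Both Col-0 salt libraries were listed at 0, and each mutant had 1 salt library at 0, the other being at 0.0893 in smeb-1 and 0.0582 in smeb-2. All smeb controls were above all Col-0 libraries, but the smeb-2 controls lay far apart. Smeb against Col-0 in control was 1.36 ± 0.23 (SE, adjusted p = 0.00215), and it was called in each of 18 settings. Salt changed SRO4 by -1.86 ± 0.26 in smeb-1 (adjusted p = 2.07e-04) and by -1.39 ± 0.26 in smeb-2 (adjusted p = 0.00122), both in each of 18 settings, and these sizes depend on the pseudocount. In Col-0 the salt difference was -0.31 ± 0.26 (adjusted p = 0.325), though its salt libraries lay below its controls. With a pseudocount of 0.1 the Col-0 difference was -1.77 (adjusted p = 0.0292). A listed 0 need not mean absence, as 11 genes of median FPKM 5 or more are listed at 0 in some library. The difference in response was -1.31 ± 0.32 (adjusted p = 0.0312), and this call was lost in 11 of 18 settings, among them a pseudocount of 0.1 (-2.31, adjusted p = 0.0845), no filter (adjusted p = 0.104) and the leaving out of 9 libraries. These were both Col-0 controls, Col-0 salt suffix 1, both smeb-1 salt, both smeb-1 control and both smeb-2 salt libraries (-1.35 to -1.28, adjusted p from 0.0520 to 0.118). SRO4 reached 1 FPKM in 3 libraries, all smeb controls, so this member too entered the test through the groups where it is high. ABCA2, the neighbour that overlaps it, was at 21.8 and 23.0 FPKM in Col-0 control and 21.7 to 22.2 in the smeb controls, a difference of -0.02 ± 0.13 (adjusted p = 0.929).

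SRO5 had the largest salt difference of the 6 members in Col-0 on the log2(FPKM + 1) scale and was higher in untreated smeb than in untreated Col-0. Its FPKM in Col-0 was 2.03 and 2.23 in control and 12.7 and 17.8 in salt. The smeb-1 libraries had 7.11 and 8.67, then 11.0 and 11.3, and the smeb-2 libraries had 4.78 and 7.15, then 11.3 and 13.4. Untreated mutants thus lay between Col-0 control and all salt libraries, with no overlap on either side. Salt raised SRO5 by 2.36 ± 0.18 (SE, adjusted p = 3.21e-06) in Col-0 and by 0.95 ± 0.18 (adjusted p = 0.00142) in smeb-2, and the difference in smeb-1 was 0.45 ± 0.18 (adjusted p = 0.0583). Smeb against Col-0 was 1.32 ± 0.16 without salt (adjusted p = 3.90e-04) and -0.34 ± 0.16 with it (adjusted p = 0.140). The difference in salt response was -1.66 ± 0.23 (adjusted p = 0.00212), and both it and the control difference were called in each of 18 settings. SRO5 in smeb-1 with salt was called without either Col-0 salt or either smeb-2 control library (adjusted p from 0.0284 to 0.0351). Salt-treated smeb against Col-0 was called without Col-0 salt suffix 0 (-0.57, adjusted p = 0.0289). In the order of group means Col-0 salt came first and overlapped smeb-2 salt, and the smeb controls overlapped each other.

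P5CDH, the mitochondrial dehydrogenase of proline breakdown that overlaps SRO5 over 905 bases, did not follow this order. It was at 32.1 and 34.0 FPKM in Col-0 control and 33.0 to 35.2 in the smeb controls, a difference of 0.04 ± 0.05 (SE, adjusted p = 0.645). In salt it was at 66.2 and 64.3 in Col-0 and 62.9 to 67.9 in smeb. With salt in Col-0 P5CDH rose by 0.96 ± 0.06 (adjusted p = 5.03e-07), and its difference in response was -0.03 ± 0.07 (adjusted p = 0.838).

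In counts, 3 of the 6 members were called with salt in Col-0, where 61.8% of all 20251 genes tested were called. The counts were 4 of 6 against 57.8% in smeb-1 and 5 of 6 against 59.7% in smeb-2, so members were called about as often as genes in general. Smeb against Col-0 gave 3 of 6 in control against 24.5%, and 1 of 6 in salt against 27.7%. The difference in salt response was called for 2 of 6, where 9.96% of all genes were called. Single libraries moved that background, from 3.88% without Col-0 control suffix 1 to 24.7% without Col-0 salt suffix 0, with 1 and 3 members called. In the same way smeb against Col-0 ran from 11.6% without Col-0 control suffix 1 to 32.4% without Col-0 salt suffix 1 in control, and from 14.7% without Col-0 salt suffix 1 to 39.1% without Col-0 salt suffix 0 in salt. All 6 members passed the filter, SRO3 and SRO4 through their high groups only, so these counts support nothing about the family. Taken alone in control, smeb-1 had calls for SRO1, SRO4 and SRO5 (background 19.8%) and smeb-2 for SRO4 and SRO5 (background 18.5%). In salt each allele was called for SRO1, at -0.30 ± 0.08 (adjusted p = 0.0196) in smeb-1 against a background of 27.6% and -0.28 ± 0.08 (adjusted p = 0.0436) in smeb-2 against 13.7%. The smeb-2 call was lost in 14 of 18 settings, including every library left out other than Col-0 salt suffix 0 (-0.32 to -0.18, adjusted p from 0.0561 to 0.197). That of smeb-1 was lost without Col-0 salt suffix 1 or either smeb-1 salt library (-0.31 to -0.20, adjusted p from 0.0658 to 0.0944), and in a fit of only the groups compared (adjusted p = 0.166). In control, SRO1 in smeb-1 was not called without any 1 of the 4 libraries compared (adjusted p from 0.0968 to 0.136). SRO4 in smeb-2, at 1.12 ± 0.26 (adjusted p = 0.0161), was not called without either Col-0 control library (adjusted p = 0.0706 and 0.0877) or without smeb-2 control suffix 1 (0.61, adjusted p = 0.0595), and stood at 2.32 (adjusted p = 0.0272) with a pseudocount of 0.1. Between smeb-2 and smeb-1 the limma fit called 0 members in control (background 0.104%) and 0 in salt (background 0.286%), also 0 at an unadjusted p under 0.05. The widest intervals there were those of SRO4, from -1.08 to 0.10 in control and from -0.61 to 0.57 in salt.

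**Figure D3:**
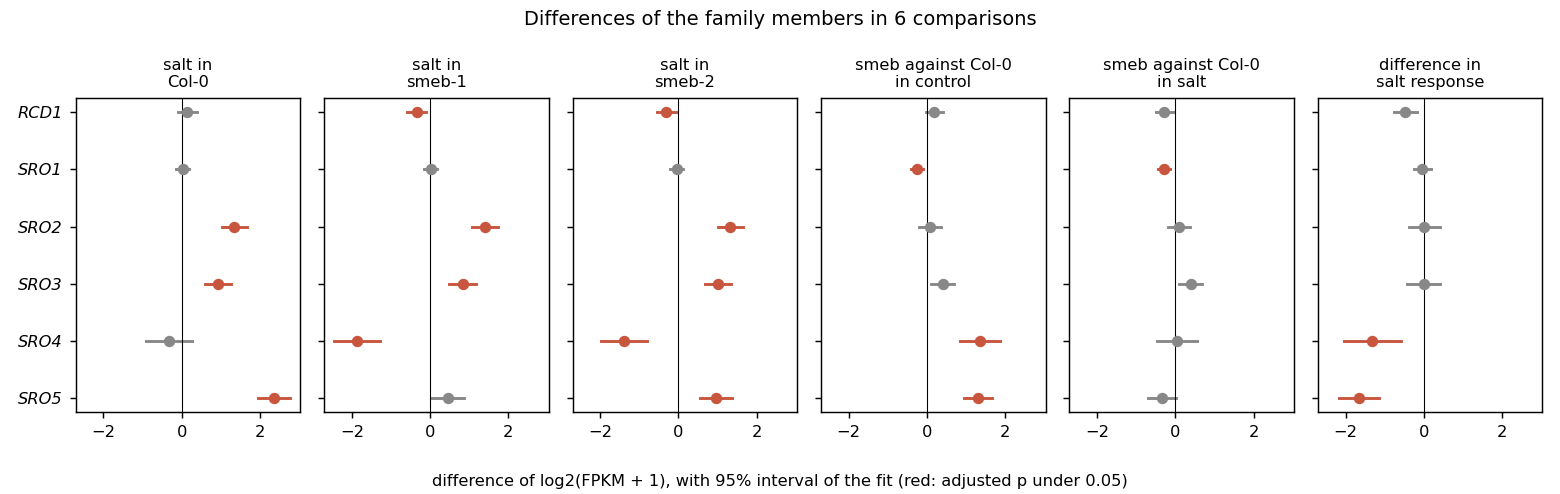
Differences of log2(FPKM + 1) for the 6 members in 6 comparisons (horizontal axes, shared), with the 95% interval of the limma fit and red for an adjusted p under 0.05. SRO2 and SRO3 have nearly the same salt difference in each line, while SRO5 goes from 2.36 in Col-0 to 0.45 and 0.95 in the mutants, and RCD1 and SRO1 stay within 0.5 of no difference.

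The RCD1 event of the splicing tables lay at chr1:11614983-11615161, inside an intron of 325 bases (11614907 to 11615231) that is the second between coding exons and the fourth of the transcript, and 0 of the 6 annotated RCD1 mRNAs hold it as an exon. It was reported by the authors for salt-treated smeb against Col-0, with replicates pooled, without telling the alleles apart and without saying whether the Col-0 reads came from salt-treated seedlings. In that deposited table of the authors, 560 reads skipped the stretch and 12 had the other form in salt-treated smeb, against 983 and 50 in Col-0. The other form thus made up 2.10% of event reads in smeb (95% Wilson interval 1.20% to 3.63%) and 4.84% in Col-0 (3.69% to 6.32%). These intervals do not overlap, which adds no support, since the authors listed the event from these same reads. The intervals cover counting error only, since reads are pooled and carry no molecular identifiers. The authors' deposited table gives p = 0.00158 and an FDR of 0.0302 for the event, which is place 120 of 137 events of that table by FDR. The share of the other form differed by -2.74 percentage points, place 61 of 64 cassette events by size, where the median size was 15.6. Of these 64 events 58 had less of the exon in salt-treated smeb and 6 had more.

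A further pair of values per group, headed Exp and not defined in the header, went the other way for RCD1. It was 473 and 1018 in salt-treated smeb and 381 and 1276 in Col-0 in the authors' deposited table, so that the first value was 46.5% of the second in smeb and 29.9% in Col-0. In 38 other cassette events with under 5% of skipping reads in the second group, the first value was 95.7% of the second at the median, as for a stretch covered about as much as its surroundings. In RCD1 the first value far exceeded the junction reads of the other form, which when halved are 6 in smeb and 25 in Col-0. The share by the Exp pair exceeded the share by junction reads, with other-form reads halved, by 45.4 points in smeb and 27.4 points in Col-0. These were places 2 and 11 among the 126 cassette events of both splicing comparisons together. Each place is among the first or the second groups of those events, where the medians were 3.48 and 3.24. The first groups thus include salt-treated Col-0 as well as salt-treated smeb. No p-value or replicate error goes with the Exp pairs.

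Translated from the annotated start, the 3 forms of RCD1 differ in length. With the stretch skipped the first stop codon is codon 590, as annotated. With the 179-base stretch joined in, which is not a multiple of 3, the first stop is codon 503, inside the stretch. With the whole 325-base intron kept the first stop is codon 460, in the first bases of the intron. These positions come from the reference sequence, and no protein was measured.

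The SRO1 event was an annotated exon, exon 2 of 103 bases at chr2:14919733-14919835, present in this form in 2 of 3 annotated mRNAs and wholly in the 5′ untranslated part. The authors reported it for salt-treated against untreated Col-0. Their deposited table gives 39 reads that skip it and 634 of the other form with salt, against 1 and 586 without. Skipping thus made up 5.79% of event reads with salt (95% Wilson interval 4.27% to 7.82%) and 0.170% without (0.0301% to 0.959%). As for RCD1, the intervals do not overlap, cover counting error only and add no support, since the authors listed the event from these same reads. The authors' deposited table gives p = 3.91e-05 and an FDR of 0.00175, place 66 of 208 events by FDR. By size the event held place 46 of 62 cassette events, with -5.62 points of the exon form against a median size of 11.2. The SRO1 level did not pass the test with salt in Col-0 (0.02 ± 0.08, adjusted p = 0.809).

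**Figure D4:**
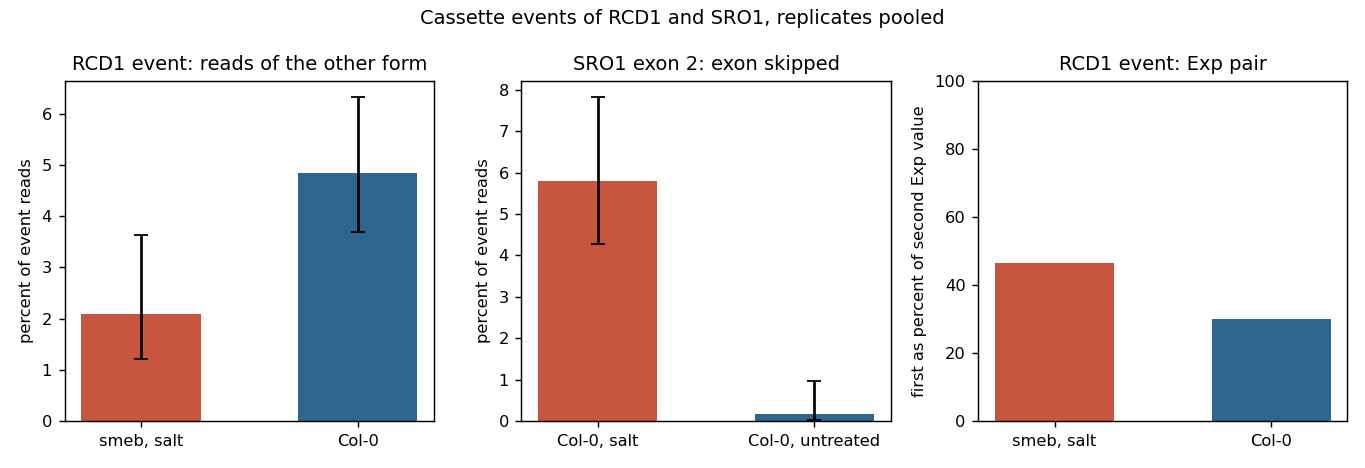
Reads of the RCD1 and SRO1 events with replicates pooled, as percent of event reads with 95% Wilson intervals (left and middle panel) and as the first in percent of the second Exp value (right panel, no error available). For RCD1 the other form is at 2.10% in salt-treated smeb and 4.84% in Col-0 while the Exp pair is at 46.5% and 29.9%, and for SRO1 skipping is at 5.79% with salt and 0.170% without.

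In the authors' deposited tables of gene terms, RCD1 stands under response to oxygen radical with 1 other gene (p = 0.0017, adjusted p = 0.01). The same table gives chromatin organization a p of 0.00168 and an adjusted p of 0.138, so these entries do not follow 1 adjustment. SRO1 stands under phase transition of meristem and photoperiodism flowering, each with an adjusted p of 0.250 in that deposited table.

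Genes whose proteins bind or modify RCD1 mostly rose with salt in Col-0. Of 12 such genes 10 were higher and 1 lower, where 6913 of all 20251 genes were higher and 5607 lower (61.8% called), with a median difference of 0.52 on the log2(FPKM + 1) scale against 0.04 over all genes tested. In a fit of only the groups compared 6 were higher. With salt in smeb-1 5 of the 12 were higher and 1 lower, against 57.8% called, and in smeb-2 4 were higher and 1 lower, against 59.7%. Whether these counts differ between lines was not tested. ANAC013, a transcription factor of the mitochondrial stress response that RCD1 binds, went from a mean of 6.16 to 40.9 FPKM (2.54 ± 0.11 SE, adjusted p = 6.33e-08). DREB2A, a transcription factor of drought and heat responses, went from 17.3 to 83.6 (2.20 ± 0.18, adjusted p = 4.70e-06), and BBX24, a B-box protein also known as salt tolerance protein, fell from 144.5 to 40.5 (-1.82 ± 0.08, adjusted p = 8.40e-08). In smeb against Col-0, 1 of the 12 was higher and 1 lower in control, where 24.5% of all genes were called, and 2 were lower and 0 higher in salt (also 0 higher at an unadjusted p under 0.05), where 27.7% were called. With 1 library left out the control counts ran from 0 to 3 higher and from 1 to 3 lower, with 3 and 3 without either Col-0 salt library and 0 higher without either Col-0 control library, either smeb-1 control library or smeb-2 control suffix 1. In salt they ran from 1 lower, for example without Col-0 salt suffix 1, to 5 without Col-0 salt suffix 0. DREB2C, a relative of DREB2A, was higher in untreated smeb (0.75 ± 0.21, adjusted p = 0.0244) and lower in salt-treated smeb (-0.71 ± 0.21, adjusted p = 0.0293), and its salt response differed by -1.47 ± 0.29 (adjusted p = 0.0131). PPK4, a kinase of the family that phosphorylates RCD1, was lower in salt-treated smeb (-0.50 ± 0.08, adjusted p = 0.00207), and BBX24 was lower in untreated smeb (-0.37 ± 0.07, adjusted p = 0.00374).

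The mitochondrial dysfunction stimulon is the set of genes that ANAC013 and ANAC017 switch on and that are raised in rcd1 mutants. Of 10 genes taken from this set, 6 were higher and 0 lower in salt-treated smeb than in Col-0 (0 lower also at an unadjusted p under 0.05). Among all 20251 genes 2592 were higher and 3025 lower there (27.7% called). The median of the 10 was 0.60 against -0.03 over all genes. Of the other four, CYP81D8 was at 0.28, AOX1D at -0.06, HSP23.5 at -0.09 and UGT74E2 at -0.51, with adjusted p from 0.234 to 0.869. In smeb-1 alone 4 of the 10 were called higher, where 27.6% of all genes were called, and in smeb-2 alone 6, against 13.7%. For both alleles together the share of all genes called was 12% with no filter and 10.3% in a fit of only the groups compared. Without Col-0 salt suffix 0 the counts for smeb were 4 higher and 2 lower, and 4 were higher with no filter and in a fit of only the groups compared. NDB4, an alternative NADH dehydrogenase, was at a mean of 1.20 FPKM in Col-0 salt and 7.25 in smeb salt (1.90 ± 0.14 SE, adjusted p = 6.98e-05). AOX1A, the alternative oxidase, was at 121 and 192 FPKM (0.65 ± 0.07, adjusted p = 4.06e-04), and OM66, an outer membrane ATPase, at 60.1 and 106 (0.81 ± 0.11, adjusted p = 9.50e-04). Without salt the list was split, 3 higher and 3 lower (24.5% of all genes called), AOX1A being lower in smeb (-0.35 ± 0.07, adjusted p = 0.00671) and NDB4 higher (0.85 ± 0.14, adjusted p = 0.00168). With salt in Col-0, 9 of 10 rose and 0 fell (0 also at an unadjusted p under 0.05), where 61.8% of all genes were called, with a median of 1.80, and SOT12, a sulfotransferase, by 2.66 ± 0.17 (adjusted p = 7.69e-07). The difference in salt response was called higher for 4 of 10 and lower for 1, where 9.96% of all genes were called, with a median of 0.66 against -0.02 over all genes. Of the 4, CYP81D8 differed by 1.27 ± 0.24 (adjusted p = 0.0101), NDB4 by 1.05 ± 0.19 (adjusted p = 0.00922) and AOX1A, with the smallest p, by 1.01 ± 0.10 (adjusted p = 4.93e-04). Leaving out Col-0 control suffix 1 left 2 higher and 0 lower, and leaving out Col-0 salt suffix 0 gave 4 higher and 2 lower. Both smeb comparisons with Col-0 in a treatment share its Col-0 libraries with the salt comparison.

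Proline genes, of which P5CDH is the neighbour of SRO5, mostly rose with salt in Col-0. There 5 of 6 rose and 0 fell (0 also at an unadjusted p under 0.05), where 61.8% of all genes were called, with a median of 1.15, and the synthesis gene P5CS2 went from 45.1 to 183 FPKM (1.99 ± 0.09 SE, adjusted p = 1.07e-07). In untreated smeb against Col-0, 1 of the 6 was higher and 2 lower, where 24.5% of all genes were called. P5CS1, the stress-induced synthesis enzyme, was lower there (40.3 against 114 FPKM, -1.48 ± 0.09, adjusted p = 1.33e-05). The breakdown enzyme ProDH1 was higher there (80.5 against 21.8 FPKM, 1.83 ± 0.16, adjusted p = 6.31e-05), and ProDH2 was lower (-0.92 ± 0.16, adjusted p = 0.00251). In salt P5CS1 stood at 306 in smeb and 301 in Col-0, a difference of 0.02 ± 0.09 (adjusted p = 0.890). There 2 of the 6 genes were lower, against 27.7% of all genes called, P5CS2 (-0.43 ± 0.08, adjusted p = 0.00426) and ProDH2 (-0.49 ± 0.16, adjusted p = 0.0453). Only 1 was lower with a pseudocount of 0.1, with no filter and under median-of-ratios scaling. The same held under quantile normalization and in a fit of only the groups compared. Among genes with a related PARP or RST domain, 3 of 5 were tested. With salt in Col-0 the transcription initiation factor gene TAF4 rose (0.47 ± 0.11, adjusted p = 0.00399) and the polymerase genes PARP1 (-0.31 ± 0.10, adjusted p = 0.0216) and PARP2 (-0.32 ± 0.11, adjusted p = 0.0240) fell. Both falls lost their call when the suffix 1 library of either Col-0 group was left out, and all 3 calls were lost in a fit of only the groups compared.

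**Figure D5:**
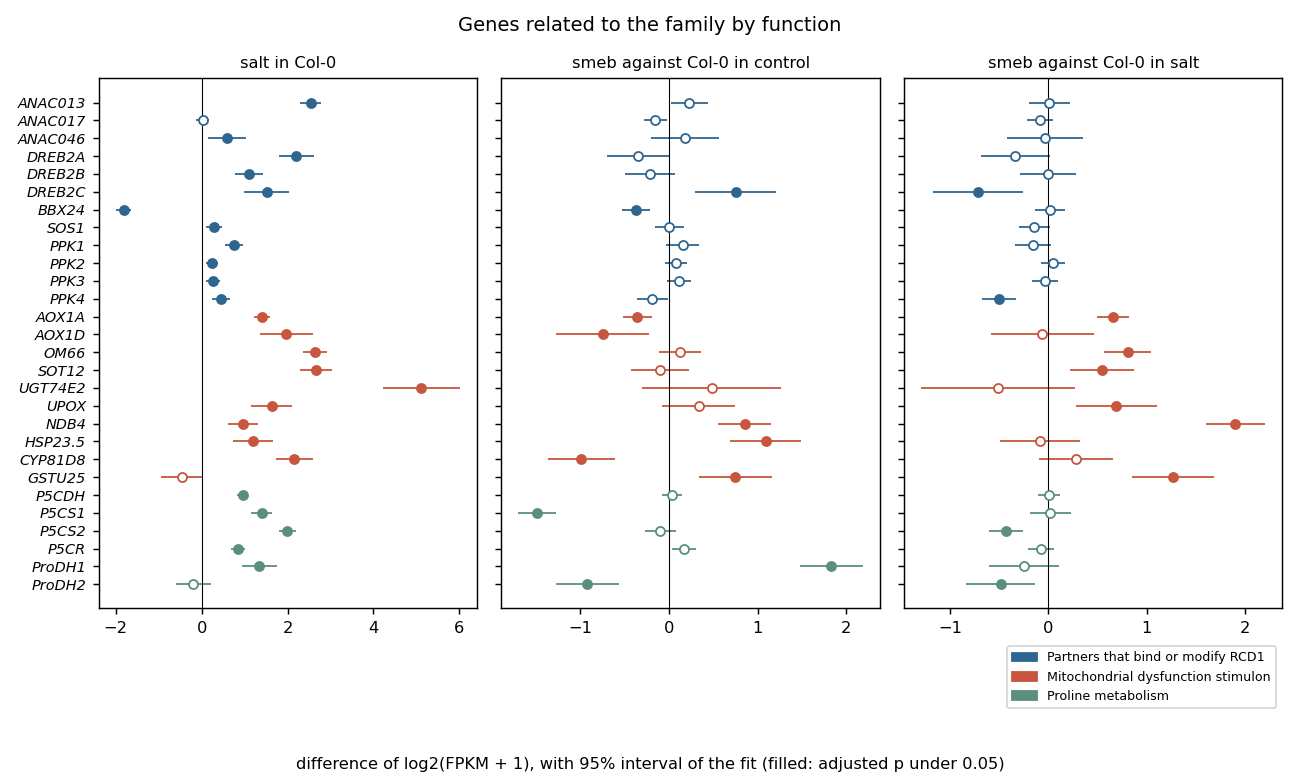
Differences of log2(FPKM + 1) with the 95% interval of the limma fit for genes related to the family, in 3 comparisons with separate horizontal scales, filled points being called at an adjusted p under 0.05. With salt in Col-0, where 61.8% of all genes were called, 10 of 12 genes that act with RCD1 and 9 of the 10 stimulon genes taken are higher. In salt-treated smeb against Col-0, where 27.7% of all genes were called, 6 of these stimulon genes are higher.

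Genes with the pattern most like each member were ranked by Pearson's r of log2(FPKM + 1) over the 12 libraries among 14832 genes of mean FPKM 5 or more, as a description, since the libraries share treatment and genotype. For RCD1 these were AT1G27290 (r = 0.956), AT4G10080 (r = 0.949) and AT2G22660 (r = 0.946). For SRO1 they were PUB13 (r = 0.969), PLDP1 (r = 0.963) and MYA1 (r = 0.953). SRO2 was closest to BRU6 (r = 0.993), AT4G32600 (r = 0.992) and AT1G30700 (r = 0.991), all higher in salt in each line. Nearest to SRO3 were AT3G56010 (r = 0.986), SIGF (r = 0.984) and AT2G18193 (r = 0.983). SRO4 was nearest to AT3G27220 (r = 0.976), the sucrose synthase gene SUS4 (r = 0.972) and the hemoglobin gene HB1 (r = 0.966). HB1 was at a mean of 11.5 FPKM in Col-0 control, 75.2 and 57.1 in the smeb-1 and smeb-2 controls and 4.26 to 5.80 in the salt groups. SRO5 was nearest to SUS1 (r = 0.978), TOC132 (r = 0.971) and COL9 (r = 0.968), and SUS1, also a sucrose synthase gene, went from 18.1 FPKM in Col-0 control to 42.4 and 33.8 in the smeb controls and 104 in Col-0 salt.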

How the data were processed

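RNA of whole seedlings was sequenced in 12 libraries. Trimmomatic 0.32, TopHat2 2.0.13 and TAIR10 are named in the submitters' processing notes. The authors deposited FPKM per gene and library. How these were computed, with which annotation, library totals and strand setting, is not given in the sources used here. Depth is therefore unknown, and relative depth was estimated from genes of low FPKM. FPKM depends on the library total, so a few abundant genes can shift all others. The splicing tables hold the authors' read counts, pooled over replicates, with a p-value and an FDR per event, per the file headers. The term tables hold 2 kinds of p from the authors, raw and adjusted. Column suffixes 0 and 1 are not tied to the replicate numbers of the labels.

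A gene entered the test if its FPKM reached 1 in 2 or more libraries, which 20251 genes did. limma 3.58.1 (trend option, R 4.3.3) was fitted on log2(FPKM + 1) with a mean for each of 6 groups, and Benjamini-Hochberg adjustment was made separately in 12 comparisons. Calls needed an adjusted p under 0.05. This scale understates changes of low genes. Values after ± are standard errors from the fit. The fitting step was tested on simulated data. Wilson intervals at 95% came from scipy 1.17.1. Names and positions came from TAIR10.1, which 32817 of 33559 identifiers matched. Named genes were the 6 members, SmEb, overlapping neighbours, up to 3 called genes of a list with the smallest p, and the 3 genes of mean FPKM 5 or more with the highest r. Members, lists and tests were chosen with earlier results of these data known. The choices varied were the pseudocount (0.1), the filter (none), the scaling (median of ratios or quantile), the libraries in the fit (only those compared, or 1 left out), a block for the column suffix, and the count of other-form reads (halved).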

Additional observations from a re-analysis of the deposited data

Results flagged for a closer look

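The salt response of SRO4 differed between smeb and Col-0 by -1.31 on the log2(FPKM + 1) scale (adjusted p = 0.0312, limma), from a test of the difference itself. This call was lost in 11 of 18 settings, with adjusted p up to 0.118. SRO4 passed the filter on low values only through the smeb control groups where it is high, and Col-0 was at a mean of 0.242 FPKM in control. SRO4 fell in the salt libraries of both mutants, and both Col-0 salt libraries were listed at 0.

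The salt response of SRO5 differed between smeb and Col-0 by -1.66 (adjusted p = 0.00212) in the same test. All Col-0 salt and smeb salt libraries were above all controls, and the smeb controls were above the Col-0 controls.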

How the results depend on the processing

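Over 72 pairs of member and comparison in 18 settings, 1168 of 1296 values kept their direction and side of the threshold, 54 lost a call, 38 gained a call and 36 changed sign, in 18 results of which 0 were called. The causes were not tested. No scaling moved the median of all genes by over 0.1, and low FPKM limits SRO3 and SRO4. With a pseudocount of 0.1 the difference in salt response was called for 1 member (2 before), where 9.51% of all genes were called, and for SRO2 it was -0.0054. Without a filter 1 member was called for the difference in salt response (3.5% of all genes called) and 1 for smeb-2 against Col-0 in control (8.49%). For smeb-2 against Col-0 in salt 0 were called (4.78%), and 2 at an unadjusted p under 0.05. For salt-treated smeb against Col-0, median-of-ratios scaling gave 2 calls (27% of all genes called) and quantile normalization 2 (26.2%). The latter also gave 2 for smeb-1 alone (26%). Under median-of-ratios scaling the salt difference of SRO1 was -0.037 in Col-0 and -0.020 in smeb-1, and the difference in response of SRO3 was 0.0041. Under quantile normalization SRO1 was at -0.098 and -0.067 with salt in Col-0 and smeb-1, and at -0.015 for smeb-2 against smeb-1 in salt. A fit of only the groups compared gave 5 calls for untreated smeb against Col-0, where 32.4% of all genes were called. In salt it gave 0 for smeb, 0 for smeb-1 and 0 for smeb-2 (2, 1 and 1 at an unadjusted p under 0.05). There 10.3%, 0.973% and 0.0494% of all genes were called. With reads of the other form halved, the RCD1 share was 1.06% in smeb and 2.48% in Col-0, and the exon form of SRO1 in salt was 89.0%. All of these shares lie below their main 95% Wilson intervals.

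With the column suffix as a replicate block, 2 members were called for salt-treated smeb against Col-0, 2 for smeb-1 and 0 for smeb-2 (3 at an unadjusted p under 0.05). Of all genes 27%, 26.7% and 12.7% were called there. The 15 correlations of suffix differences between groups ran from -0.125 to 0.112 and 2 were over 0.1, so libraries of the same suffix shared little shift. These correlations cannot tell whether such libraries were handled together.

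Leaving out 1 library at a time, the members called ran from 2 to 5 for untreated smeb against Col-0, from 0 to 3 for salt-treated smeb and from 1 to 3 for the difference in response. For smeb-2 against Col-0 they ran from 1 to 4 in control and 0 to 2 in salt, and for smeb-1 in salt from 0 to 3. In these fits the share of all genes called was also at or near its highest where the most members were called. These ranges therefore say nothing about the family. RCD1 with salt in Col-0 ran from -0.056 to 0.35. For SRO1 the salt difference ran from -0.072 to 0.12 in Col-0, from -0.0012 to 0.029 in smeb-1 and from -0.11 to 0.015 in smeb-2, the difference in response from -0.13 to 0.056, and smeb-2 against smeb-1 in salt from -0.026 to 0.071. For SRO2 untreated smeb against Col-0 ran from -0.017 to 0.17 (smeb-1 alone from -0.12 to 0.24), salt-treated smeb from -0.036 to 0.22 (smeb-1 alone from -0.0054 to 0.25, smeb-2 alone from -0.066 to 0.19), the difference in response from -0.11 to 0.14, and smeb-2 against smeb-1 from -0.16 to 0.21 in control and from -0.19 to 0.064 in salt. For SRO3 the difference in response ran from -0.13 to 0.11 and smeb-2 against smeb-1 in salt from -0.079 to 0.28. For SRO4 smeb-2 against smeb-1 ran from -1.005 to 0.020 in control and from -0.083 to 0.041 in salt.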
